A study of Mus musculus with 8 samples.

Results

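The expression profile described here is that of 4 control cultures of C2C12, an established mouse skeletal myoblast line, out of 8 cultures in the series. The 4 controls, called scrambled 1 to 4 by their replicate number, each carried a lentivirus encoding scrambled RNA, which targets no mouse transcript by design. The virus was added at moi 100, the cells grew for 5 to 7 days, and a flow sort for the GFP it carries left 93 to 99% positive cells. According to the growth protocol, 4 days in 5% horse serum followed, for differentiation. Other labels call the same samples confluent myoblasts or carry a day mark of unstated meaning, so the labels leave the stage at harvest unsettled. From each culture 25 ng of total RNA went through whole transcriptome amplification onto 1 single-colour Affymetrix mouse array. Members were chosen by label alone, as all arrays of scrambled RNA, and the 18193 genes with a probe set of 1 annotated symbol were described on them. All 4 cultures came from 1 line, and the labels say biological replicate without saying how each was derived, so the spread given below may be partly technical. No untransduced culture and no culture in growth medium was described, so what the virus, the sort or the serum step did to these levels cannot be told apart from what the line does by itself.

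C2C12 cells descend from satellite cells, the stem cells of adult skeletal muscle. When they reach confluence and serum is reduced, most leave the cell cycle, switch on the MyoD family factor myogenin and then the genes of the sarcomere, and fuse into multinucleated myotubes that resemble embryonic or neonatal fibres. A fraction stays mononucleated and unfused, as reserve cells. The RNA of such a plate is a mixture, and in these bulk samples a smaller number of cells of a kind and less RNA per cell cannot be told apart.

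Each value is a log2 signal per probe set, so that 1 unit is a 2-fold step. A gene was represented by its brightest probe set over the 4 arrays. The levels ran from 2.19 to 15.11 with a median of 7.10, and 463 genes, 2.54% of them, read above 12. To judge where signal stands above that of a silent gene, 76 olfactory, vomeronasal and taste receptor genes were used, which muscle is not known to express. They read from 2.45 to 7.27 with a median of 4.29. Their 95th percentile, 6.62, is called the receptor level below. Of all genes, 10132 (55.7%) had a mean above it, against 4 of the 76 receptors that set it. Part of that count goes with the number of probe sets, since 39.5% of the 9183 genes with 1 probe set lay above it and 72.2% of the 9010 genes with several. A reading under the receptor level is not absence. Rps16, a protein of every ribosome, read 3.11, 3.30, 3.20 and 3.61 in scrambled 1 to 4, and dystrophin (Dmd), the link from the cytoskeleton to the muscle membrane, read 3.90, 3.61, 3.61 and 3.75. Probe sets differ in how strongly they bind, so ranks below are ranks of signal, and no gene's abundance is set against that of another.

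**Figure D1:**
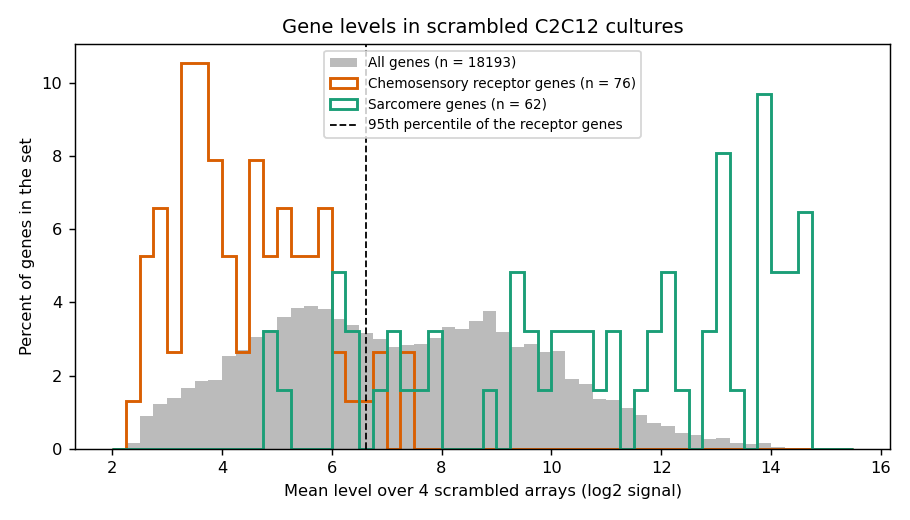
Distribution of the mean log2 signal over the 4 scrambled arrays, as the percent of genes in each set per bin of 0.25, for all 18193 genes (grey), 76 chemosensory receptor genes (orange) and 62 sarcomere genes (green). The dashed line is the receptor level of 6.62, and 54 of the 62 sarcomere genes and 4 of the 76 receptor genes lie to its right.

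The 4 arrays were alike. Correlations between them over all probe sets ran from 0.992 to 0.997, array medians from 6.16 to 6.19, and 10083 to 10159 genes read above the receptor level on a single array. Of the 100 brightest genes of each array, 83 were shared by all 4 arrays and 123 appeared on any. The arrays did not share the remaining deviation evenly. Of the summed squared deviation from the probe set means, scrambled 4 held 37.2%, scrambled 2 held 27.6%, scrambled 3 held 17.8% and scrambled 1 held 17.5%.

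The brightest signals were those of contractile proteins and of the translation machinery. Of the 20 brightest genes, 10 encode actins, troponins or myosin light chains and 4 encode ribosomal proteins. Rank 1 went to Tmsb10, an actin-monomer binding thymosin, at 15.11, 15.12, 15.10 and 15.13. Next stood Tpt1, the translationally controlled tumour protein, at 14.80 ± 0.01 (SD, n = 4, as for every ± below), and Lgals1, the galectin secreted by muscle and fibroblastic cells, at 14.78 ± 0.03. Skeletal alpha-actin, Acta1, held rank 4 with 14.68, 14.68, 14.77 and 14.68. It was followed by beta-actin (Actb, 14.65 ± 0.05), the fast alkali light chain Myl1 (14.65 ± 0.10), the elongation factor Eef1a1 (14.63 ± 0.02), the fast regulatory light chain Mylpf (14.53 ± 0.08) and the iron-storage subunit Fth1 (14.51 ± 0.05). Cardiac alpha-actin, Actc1, the isoform that developing skeletal fibres also make, read 14.49, 14.41, 14.51 and 14.39. The last 10 of the 20 were Tnnc1, Acta2, Rps2, Uqcrb, Tnnc2, Myl4, Tnni1, Rps28, Rpl7a and Rpl37a, none under 14.07. The SD of these 20 genes lay between 0.012 and 0.13, so the cultures differed little in them. Saturation of the brightest probe sets was not tested.

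Sarcomere genes as a whole were bright. Of 62 measured, 54 (87.1%) lay above the receptor level, against 55.7% of all genes, with a median level of 11.45 against 7.10 over all genes. Myosin heavy chains are the motors of the thick filament, and each isoform marks a stage or a fibre type. The embryonic chain Myh3 read 13.92, 13.89, 14.12 and 14.01, which is signal rank 25, with no array apart. The perinatal chain Myh8 read 10.49, 10.62, 10.10 and 9.41, lowest in scrambled 4. Among adult chains, Myh1 (fast IIx) read 12.28, 12.22, 11.96 and 12.32. Its next probe set had a mean of 12.02. Its dimmest read 5.53, 5.52, 5.20 and 5.42, under the receptor level on all 4 arrays, so the probe sets of Myh1 disagree. Myh4 (fast IIb) read 9.31, 9.85, 7.84 and 8.46, so its arrays differed by over 1 unit. The dimmer probe set of Myh4 read 7.07, 7.55, 5.27 and 6.05. The slow chain Myh7 read 10.02, 10.48, 9.90 and 9.39. Myh7b, an ancient slow-type chain, lay just over the receptor level at 7.23 ± 0.51. The chains that did not reach it were Myh2 (fast IIa, 4.86 ± 0.04) and the cardiac Myh6 (4.81 ± 0.11).

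Light chains, actins and troponins of several muscle types were bright side by side. Of the myosin light chains, 8 of 9 were above the receptor level, against 55.7% of all genes. Among them, the embryonic and atrial Myl4 read 14.17 ± 0.13. The slow and ventricular forms Myl2 (7.52 ± 0.62) and Myl3 (6.98 ± 0.07) stood near the level. All 6 actins were above the level, against the same 55.7%, including smooth muscle Acta2 (14.33 ± 0.12) and Actg2 (9.39 ± 0.10). The dimmer probe sets of Acta2 had means of only 8.22 and 6.99. Of the 8 troponin genes, whose products make the calcium switch of the thin filament, 7 were above, against the same 55.7%. Tnnc1, troponin C of slow and cardiac muscle, read 14.41, 14.47, 14.43 and 14.43, and the fast form Tnnc2 read 14.20 ± 0.08. Slow Tnni1 (14.16 ± 0.07) and cardiac and embryonic Tnnt2 (13.96, 13.95, 13.99 and 13.70, lowest in scrambled 4) were accompanied by the fast Tnni2 (13.20 ± 0.24) and Tnnt3 (13.16 ± 0.23). Cardiac Tnni3 alone missed the level, at 6.10 ± 0.28. Isoforms of slow, fast, embryonic and cardiac type were thus found above the receptor level in the same cultures, although Myh2, Myh6 and Tnni3 were under it.

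**Figure D2:**
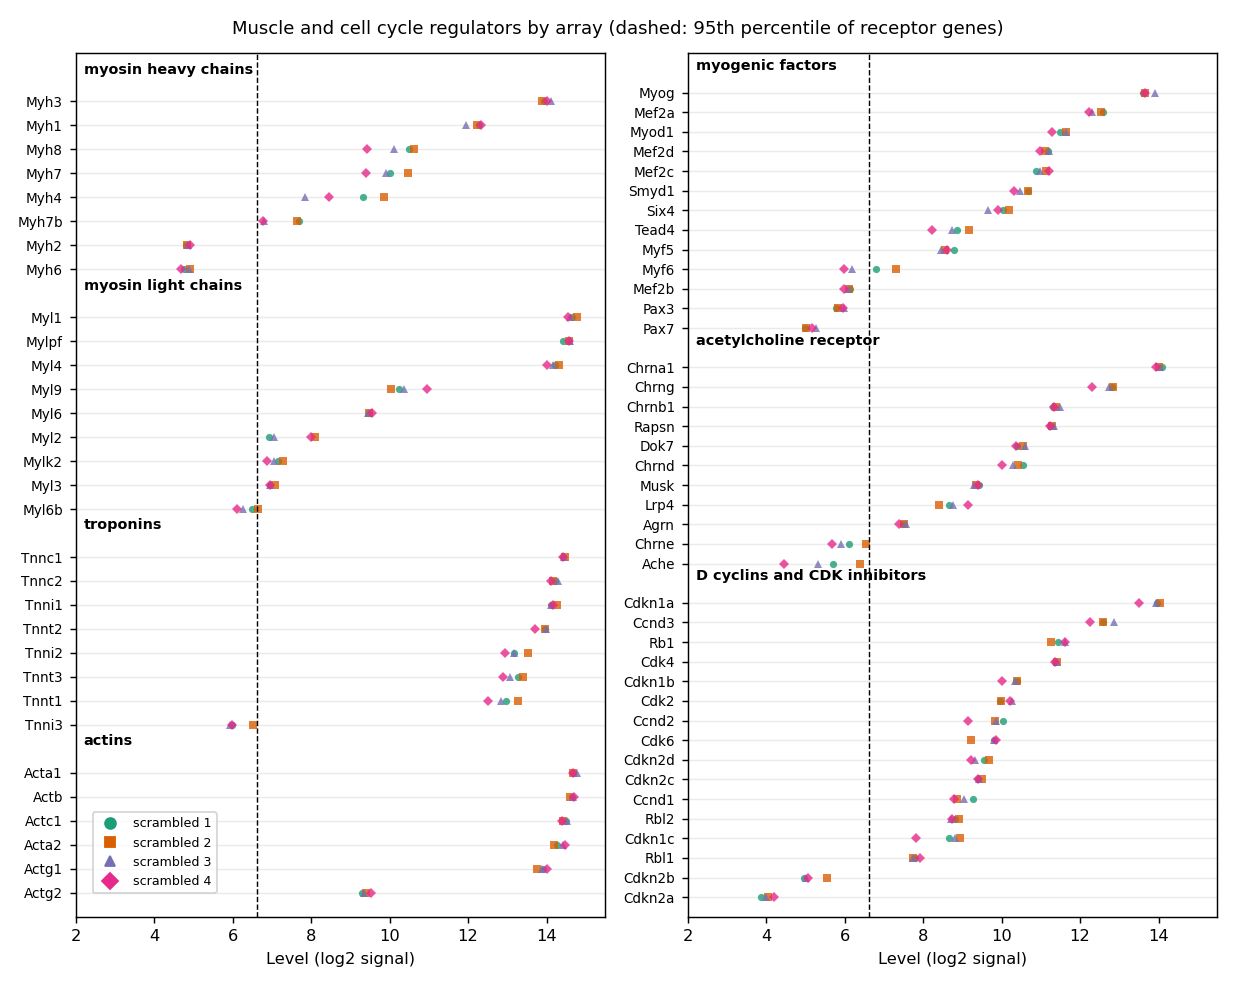
Log2 signal of each scrambled array (coloured symbols) for the members of 4 contractile protein lists (left) and of 3 lists of regulators (right), ordered by mean within a list. The dashed line is the receptor level of 6.62. The symbols of Myh3 lie between 13.89 and 14.12 and those of Myh4 spread from 7.84 to 9.85.

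Thin filament, Z-disc and M-band genes showed the same brightness with a few dim members. Tropomyosin Tpm1 read 13.98 ± 0.11, the ruler protein nebulin (Neb) 11.86 ± 0.16 and titin (Ttn), the molecular spring, 13.20 ± 0.19. Of 13 Z-disc genes 11 were above the receptor level, against 55.7% of all genes. Alpha-actinin Actn3 read 13.09 ± 0.26, the intermediate filament desmin (Des) 12.93 ± 0.18 and telethonin (Tcap), which caps titin, 9.67 ± 0.67. Myotilin (Myot, 5.24 ± 1.10) and Myoz3 (6.11 ± 0.10) were under the level. Mybph (13.84 ± 0.15) and Myom2 (13.80 ± 0.13), of the thick filament and M-band, were the brightest of their list, and the cardiac Mybpc3 read 6.08 ± 0.07.

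Promoters of 3 of these bright muscle genes are shown for the letters of a muscle control element and of the general core promoter. Each is the 250 bases before the start in RefSeq, build GRCm38.p6, 5′ to 3′ on the gene's strand, for Acta1 at chr8:123894776-123895025 (minus strand), Tnnc1 at chr14:31208062-31208311 (plus) and the muscle creatine kinase gene Ckm at chr7:19410844-19411093 (plus). Capitals mark CAGCTG, an E box of the kind bound by MyoD and myogenin, and TATANA, the core of a TATA box. TATANA was marked on either strand, so its reverse complement TNTATA, as in TCTATA of Ckm, is in capitals too.
Acta1: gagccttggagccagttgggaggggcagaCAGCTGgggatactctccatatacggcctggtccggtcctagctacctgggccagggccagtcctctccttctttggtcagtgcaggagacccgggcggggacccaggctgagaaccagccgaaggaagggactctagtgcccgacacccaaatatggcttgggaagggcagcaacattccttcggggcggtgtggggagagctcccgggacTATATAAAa
Tnnc1: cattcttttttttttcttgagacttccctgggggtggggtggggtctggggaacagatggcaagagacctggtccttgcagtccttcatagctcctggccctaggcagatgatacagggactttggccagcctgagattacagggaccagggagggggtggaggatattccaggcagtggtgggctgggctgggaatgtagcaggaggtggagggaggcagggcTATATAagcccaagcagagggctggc
Ckm: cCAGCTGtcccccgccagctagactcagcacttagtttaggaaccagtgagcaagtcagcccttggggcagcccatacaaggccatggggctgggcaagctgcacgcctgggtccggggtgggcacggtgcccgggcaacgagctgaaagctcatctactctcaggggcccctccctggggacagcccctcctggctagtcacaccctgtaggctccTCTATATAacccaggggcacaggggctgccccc
In Acta1 the E box lay at -221 to -216 from the start, and in Ckm at -249 to -244, in both at the far end of the window, and Tnnc1 held only TATANA. Searched on both strands, CAGCTG occurred in this window in 16 of the 48 sarcomere genes that matched the RefSeq table (33.3%), against 12.8% of all 27025 promoters and 7.5% of 40 ribosomal protein genes. The 16 included Myh4, Myl1, Mylpf, Acta1, Tnni1, Tnnt2, Tpm2, Des, Myoz2 and Mybph. TATANA, also searched on both strands and whose matches can overlap each other, occurred in 31.3% of the sarcomere genes, 23.4% of all promoters and 17.5% of the ribosomal genes. A match describes letters in the window and not a bound site.

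Genes that couple excitation to contraction were nearly all above the receptor level, 18 of 19 against 55.7% of all genes, with a median of 10.93. Casq2 and Casq1 encode the calcium stores of the sarcoplasmic reticulum. Casq2 read 13.17 ± 0.09, whereas Casq1, the fast skeletal form, read 11.14, 11.37, 9.99 and 9.33, high in scrambled 1 and 2 and low in 3 and 4. The calcium pump Atp2a2 read 13.10 ± 0.13. Its fast skeletal counterpart Atp2a1 read 13.29, 13.38, 13.15 and 12.26, and the release channel Ryr1 11.09, 11.11, 11.18 and 10.51, both low in scrambled 4. The voltage sensor Cacna1s read 10.29 ± 0.30 and the triad adaptor Stac3 10.39 ± 0.17. Parvalbumin (Pvalb), a calcium buffer of fast adult fibres, read 7.85 ± 0.67, and the pump inhibitor sarcolipin (Sln) was under the level at 5.11 ± 0.07.

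At the membrane, subunits of the fetal acetylcholine receptor were bright. The receptor's alpha subunit Chrna1 read 14.09, 14.00, 14.03 and 13.93, and the gamma subunit Chrng, found in fetal receptors, read 12.82, 12.83, 12.74 and 12.31. The epsilon subunit Chrne, which takes the place of gamma at the adult synapse, read 6.10, 6.55, 5.89 and 5.68, under the receptor level on all 4 arrays. Rapsn (11.27 ± 0.06), Musk (9.36 ± 0.05) and Dok7 (10.47 ± 0.11), which cluster receptors, were above it, and Ache, the esterase of the synapse, was not (5.46 ± 0.81). Of the dystrophin complex 8 of 10 measured genes were above, against 55.7% of all genes. Dystroglycan (Dag1) read 12.24 ± 0.17, the dystrophin homologue utrophin (Utrn) 10.80 ± 0.22 and Sgca 10.79 ± 0.25. The 4 probe sets of Dmd had means of 3.72, 3.59, 3.19 and 2.54.

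The regulators of myogenesis covered its stages unevenly. Myogenin (Myog), the factor of terminal differentiation, read 13.60, 13.66, 13.90 and 13.64, signal rank 56. Myod1, which commits cells to muscle, read 11.49, 11.65, 11.63 and 11.29. Myf5, an early factor, read 8.60 ± 0.13, and Myf6, the late factor of mature fibres, read 6.81, 7.30, 6.18 and 5.99, on both sides of the receptor level. The satellite cell factors Pax7 (5.11 ± 0.13) and Pax3 (5.89 ± 0.09) were under it. Mef2a (12.41 ± 0.17), Mef2d (11.11 ± 0.09) and Mef2c (11.05 ± 0.14), partners of the MyoD family, were above. Myomaker (Mymk) and myomixer (Mymx), the pair of proteins that fuse muscle cells, read 13.72 ± 0.18 and 13.04 ± 0.12. The fusion and adhesion list had 15 of 17 members above the level, against 55.7% of all genes. Among them were the muscle cadherin Cdh15 (11.37 ± 0.22), Ncam1 (12.01 ± 0.16) and Itga7 (12.08 ± 0.22).

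Genes of the undifferentiated state were also found above the receptor level. Of 16 inhibitors of myogenesis 13 were above it, with Snai2 at 10.83 ± 0.19, the receptor Notch3 at 9.60 ± 0.18, its target Hes1 at 8.56 ± 0.12 and Id1, which sequesters E proteins, at 8.42 ± 0.04, while Twist1 (3.40 ± 0.15) and Hey2 (2.95 ± 0.12) were under it. The list's median was 7.87, near the 7.10 of all genes. Of all genes 55.7% were above the receptor level, and of those with several probe sets 72.2%. Progenitor receptors counted 11 of 13 above, led by Pdgfrb (10.45 ± 0.29) and the heparan sulfate carrier Sdc4 (10.20 ± 0.17), and the satellite cell receptor Calcr read 3.13 ± 0.07.

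Genes of cell cycle exit and transcripts of dividing cells were measured together. Cdkn1a, the p21 inhibitor that rises on cell cycle exit in muscle, read 13.97, 14.03, 13.94 and 13.51. Ccnd3, the D cyclin of myotubes, read 12.57 ± 0.25, and the retinoblastoma gene Rb1 read 11.48 ± 0.18. Ccnd1, the D cyclin of growing myoblasts, read 8.99 ± 0.22. The other CDK inhibitors were spread out. Cdkn1b read 10.39, 10.38, 10.33 and 10.00, Cdkn2d 9.45 ± 0.21, Cdkn2c 9.43 ± 0.04 and Cdkn1c 8.56 ± 0.50, while Cdkn2b (5.15 ± 0.26) and Cdkn2a (4.03 ± 0.13), which is deleted or silent in many lines, were under the receptor level. Of 17 mitotic genes 16 were above the receptor level, against 55.7% of all genes, with a median of 8.25. Mki67, a marker of cycling cells, read 9.10, 8.58, 8.74 and 8.78, and Top2a read 9.19 ± 0.18. The mitotic kinase Cdk1 read 9.28, 9.24, 9.20 and 9.69, highest in scrambled 4. DNA replication genes stood at a median of 8.52 with 15 of 17 above, against the same 55.7%. They were led by the sliding clamp Pcna (11.83 ± 0.27) and the ribonucleotide reductase Rrm2 (11.32 ± 0.45). Among p53-linked genes, Gadd45a read 12.25, 12.51, 12.22 and 11.48, Ccng1 11.58 ± 0.18 and Mdm2 10.78 ± 0.10. Trp53inp2, the gene whose knockdown the wider study was about, read 11.50, 11.55, 11.43 and 10.92, signal rank 879, and its dimmer probe set had a mean of 8.01.

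Growth factor and matrix genes were prominent. Igf2, an autocrine driver of myoblast differentiation, read 10.94, 11.17, 11.20 and 10.70. Its dimmer probe set read 5.66, 6.19, 6.34 and 6.32, under the receptor level on all 4 arrays. Igfbp5, a binding protein induced with differentiation, read 13.42, 13.34, 13.12 and 12.81. Igf1 itself read 6.06, 6.28, 6.41 and 7.28, above the receptor level in scrambled 4 only, and its next probe set read 6.32, 6.30, 6.43 and 6.98. The receptors Igf1r (9.27 ± 0.19) and Insr (8.46 ± 0.07) and the substrate Irs1 (10.94 ± 0.33) were above it, whereas Irs2 was not (6.25 ± 0.20). Slc2a4, the insulin-responsive glucose carrier, read 7.76 ± 0.41. Collagens had 13 of 15 above, against 55.7% of all genes, with Col3a1 at 13.78 ± 0.06, Col5a2 at 12.52 ± 0.12 and Col1a2 at 12.21 ± 0.12. Other matrix genes had 16 of 19 above, with fibronectin (Fn1) at 13.43 ± 0.15 and Sparc at 13.21 ± 0.12. Lum, a proteoglycan of fibroblasts, was under the level at 5.05 ± 0.25.

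Genes of large complexes were above the receptor level almost throughout, against 55.7% of all genes. Cytosolic ribosomal proteins had a median of 13.45 with 42 of 46 above, and the 4 under it, named after their values were seen, were Rps16 and the paralogues Rpl3l (4.76), Rpl39l (4.66) and Rps4l (4.29). Proteasome genes had 35 of 39 above with a median of 11.74, and the 4 under it, also named after their values were seen, were special-purpose subunits, Psmb9 (5.46) and Psmb8 (5.34) of the immunoproteasome, Psmb11 of the thymus (5.27) and Psma8 of the testis (3.89). Respiratory chain subunits counted 72 of 73 above with a median of 11.97, and mitochondrial ribosomal proteins 75 of 75 with 9.91. All 17 autophagy genes were above the level, against the same 55.7% of all genes, led by Map1lc3a (13.00 ± 0.13) and the cargo receptor Sqstm1 (12.50 ± 0.06). Of the genes of thyroid hormone action, Thra read 9.22 ± 0.27 and Dio2, which makes the active hormone, 8.33 ± 0.27, while Thrb read 5.33 ± 0.11. The ubiquitin ligases of muscle wasting, Trim63 and Fbxo32, read 11.06 ± 0.19 and 10.01 ± 0.13.

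Interferon-stimulated genes, which double-stranded RNA and viruses can induce, lay near the share of all genes. Of 17 measured, 8 (47.1%) were above the receptor level, against 55.7% of all genes, and the median was 6.33 against 7.10. Irf1 was the brightest at 9.01 ± 0.10, and Ifit1 (5.16 ± 0.15), Irf7 (5.09 ± 0.11), Usp18 (4.57 ± 0.17) and Mx1 (3.72 ± 0.18) were under it. Of 18 imprinted and noncoding genes 10 (55.6%) were above, the share of all genes, with Gnas at 13.86, 13.86, 13.86 and 13.56, Peg3 at 12.37 ± 0.07, Meg3 at 6.76 ± 0.06 and Dlk1 at 6.15 ± 0.05. Xist, the RNA of the inactive X chromosome, read 12.11, 11.51, 12.14 and 12.22. The Y-linked Kdm5d (4.21 ± 0.13), Uty (3.98 ± 0.08) and Eif2s3y (2.79 ± 0.10) were all under the receptor level.

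Markers of other cell types were mostly under the receptor level, with a median of 5.63 that was higher than the 4.29 of the receptor genes themselves. Of 107 markers from 17 lists, 24 (22.4%) were above the receptor level, against 55.7% of all genes. Of the 102 that no muscle or housekeeping list also held, 21 (20.6%) were above. The count of 24 depends on how a gene is read. It was 13 above the 99th percentile of the receptors and 37 above the median of all probe sets. With all probe sets of a gene averaged it was 15. No measured member was above it among 8 endothelial, 5 osteoblast, 4 erythroid, 6 pluripotency and 5 retina and lens markers. Defining genes such as the leukocyte Ptprc (3.08 ± 0.14), the adipocyte Adipoq (3.18 ± 0.15), the endothelial Pecam1 (5.08 ± 0.19) and the epithelial Cdh1 (4.27 ± 0.34) were dim. Other members were above the level in the lists of adipocyte (1 of 7), macrophage (2 of 8), lymphocyte (2 of 6) and neuron (3 of 8). So were members for Schwann cells and glia (2 of 5), pancreas (2 of 4), cardiac muscle (2 of 8) and hepatocyte (1 of 6). The highest of these read 7.71, in the neuron list. The exceptions lay mostly low. Sox9 of cartilage read 8.13, 8.27, 8.16 and 8.0, Scx of tendon 8.11, 8.22, 8.09 and 8.53, and Epcam of epithelium 7.66, 7.40, 7.88 and 7.73, while other members of their lists, such as Acan (5.72 ± 0.23), Tnmd (3.79 ± 0.08) and Krt18 (4.00 ± 0.11), were under it. Smooth muscle was the list with the most members above, 5 of 8 (62.5%), near the 55.7% of all genes. These were Acta2, Des, Tagln (10.72 ± 0.30), Smtn (9.74 ± 0.16) and Actg2, of which differentiating myoblasts also express several. The defining smooth muscle members Myh11 (4.76 ± 0.09), Cnn1 (5.33 ± 0.14) and Myocd (4.83 ± 0.19) were not above. In all, 83 of the 107 markers were not above the receptor level. The lists were chosen with earlier results of these data known, so these counts do not test the labelled skeletal muscle identity.

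**Figure D3:**
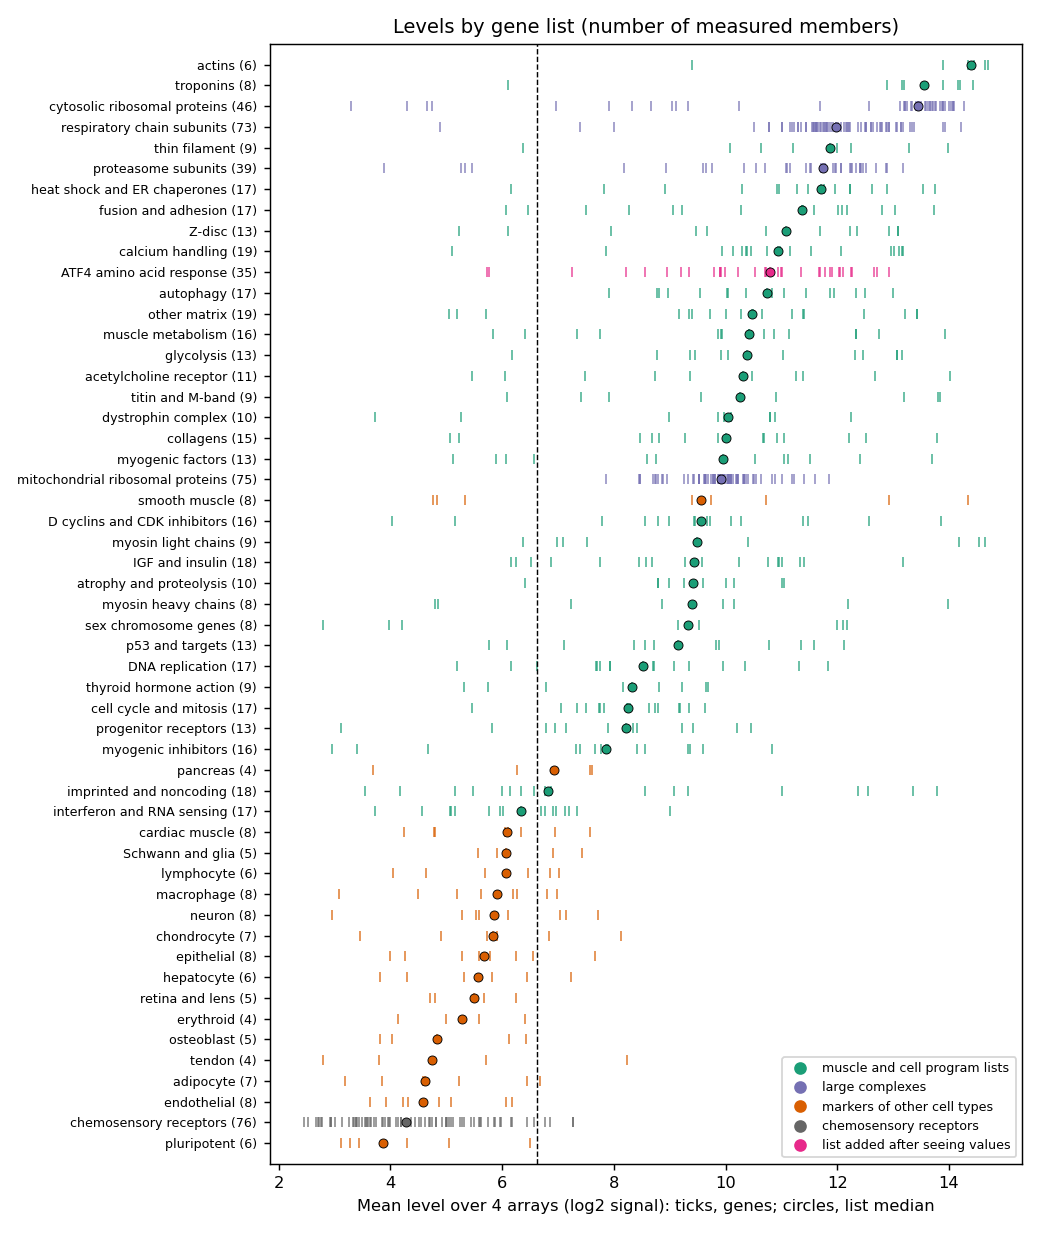
Mean log2 signal over the 4 scrambled arrays for each measured gene (ticks) and the list median (circles), with lists ordered by median and the number of measured members in brackets. The dashed line is the receptor level. Actins (median 14.39), troponins (13.55) and ribosomal proteins (13.45) stand at the top, and chemosensory receptors (4.29) and pluripotency markers (3.87) at the bottom.

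Cultures differed from each other by little in most genes. Above the receptor level the median SD over the 4 arrays was 0.131 log2 units, the 95th percentile 0.334 and the 99th 0.530. It depended little on brightness, with medians of 0.120 under the receptor level, 0.131 from there to 9, 0.132 from 9 to 12 and 0.118 above 12. A range over 1 unit, which is more than a 2-fold gap between the highest and the lowest culture, was seen in 187 of 10132 genes (1.85%). Of these 187, scrambled 4 was lowest in 132 and scrambled 2 highest in 107. Over all genes above the receptor level, scrambled 4 was lowest in 37.7% and scrambled 2 highest in 35.1%. Where a second probe set of the gene was also above the level, in 4527 genes, both probe sets had the same lowest array in 53.7%, and in 62 such genes with a range over 1 they did so in 90.3%.

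The most variable genes were mostly lowest in the same culture. Of the 12 with the highest SD, 10 were lowest in scrambled 4 and the other 2, Tceal7 and Fam167a, were highest in it. Cth, the enzyme that makes cysteine from cystathionine, read 9.09, 9.13, 8.91 and 5.71. Trib3, a stress-induced pseudokinase that binds AKT, read 10.59, 10.51, 10.38 and 7.69. Both were nearly level in 3 cultures and low in scrambled 4. The other 3 also lay within 1 unit of each other in Glrp1 (8.70, 8.51, 8.07 and 5.84), Cfap52 (9.45, 9.83, 9.69 and 7.29) and Usp17la (7.44, 7.63, 7.18 and 5.36), which were lowest in scrambled 4 too. A different order, high in scrambled 1 and 2 and low in 3 and 4, was shown by Cd24a (7.61, 8.76, 6.06 and 5.53), a surface glycoprotein of progenitors, Cdsn (9.62, 9.93, 8.23 and 7.01), Lrmda (7.72, 8.17, 6.87 and 5.26) and the chromatin organiser Satb1 (7.85, 7.91, 6.51 and 5.62). Tceal7 ran the other way at 7.49, 7.92, 8.63 and 9.97, as did Fam167a at 7.97, 7.59, 8.83 and 9.90. Ptx3, a secreted pentraxin, was highest in scrambled 3, at 6.62, 6.70, 7.98 and 5.39. The next brightest probe sets of Trib3 (10.47, 10.33, 10.09 and 7.02) and Cfap52 (8.43, 8.62, 8.71 and 6.21) were lowest in scrambled 4 as well. So were those of Cd24a (7.08, 8.21, 5.40 and 5.24) and Satb1 (6.83, 7.25, 6.06 and 4.65), with means under the receptor level. Those of Lrmda (6.41, 6.37, 6.31 and 6.38) and Ptx3 (5.41, 4.98, 5.08 and 5.16) did not repeat the order of the brightest. Lrmda was lowest there in scrambled 3 and Ptx3 in scrambled 2, and both read under the receptor level on all 4 arrays.

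The least variable genes, taken among those above the receptor level, were mostly of middle brightness, and Tmsb10 alone had a mean above 12. The 12 with the lowest SD, all at or under 0.012, were Ly96, Rbfox3, Os9, Hdlbp, Ift52, Pmm2, Glyr1, Usp37, Nfrkb, Tmsb10, Rab35 and Rtn4r. Hdlbp, an RNA-binding protein of the endoplasmic reticulum, read 10.95, 10.95, 10.96 and 10.96, and Os9, of the degradation machinery there, read 9.67, 9.65, 9.66 and 9.66. Both Ly96 (6.70) and Rbfox3 (7.15) were close to the receptor level, where a steady reading can be that of an unexpressed probe set.

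Apart from the amino acid response described below, the list of muscle metabolism separated the cultures most, with scrambled 2 high and scrambled 4 low. For each list the median deviation of its members from their means over the 4 arrays was taken. It was 0.17, 0.58, -0.13 and -0.46 in scrambled 1 to 4 for muscle metabolism, 0.01, 0.18, 0.04 and -0.34 for calcium handling and 0.08, 0.26, -0.05 and -0.27 for myosin heavy chains. Of 16 genes of muscle metabolism 14 were highest in scrambled 2 and 13 lowest in scrambled 4, and of 19 calcium handling genes 18 were lowest in scrambled 4. For all genes above the receptor level the shares were 35.1% highest in scrambled 2 and 37.7% lowest in scrambled 4. Cox6a2, the heart and muscle form of a cytochrome oxidase subunit, read 10.92, 11.33, 10.43 and 9.01, and its counterpart Cox7a1 read 7.56, 8.51, 6.87 and 6.40. Sarcomeric mitochondrial creatine kinase, Ckmt2, crossed the receptor level, with 6.28, 7.93, 4.93 and 4.24. Muscle glycogen phosphorylase (Pygm) read 10.94, 11.31, 10.73 and 9.78, and Ckm 12.93, 13.10, 12.69 and 12.26. Myoglobin (Mb), which holds oxygen, was high in scrambled 1 and 2 (12.54 and 12.92) and low in scrambled 3 and 4 (11.90 and 11.96). Some muscle genes did not follow this order and others did. Myog was highest in scrambled 3, Myh3 was lowest in scrambled 2, and the medians of actins stayed between -0.05 and 0.09, whereas Myh8, Myl4, Chrng and Myod1 were highest in scrambled 2 and lowest in scrambled 4.

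Mitochondrial genes read high in scrambled 2 almost throughout. Its median deviation was 0.23 for mitochondrial ribosomal proteins, of which 71 of 75 were highest there, and 0.20 for respiratory chain subunits, of which 66 of 73 were. Over all genes above the receptor level, scrambled 2 was highest in 35.1%. DNA replication genes ran the other way, with medians of -0.17 in scrambled 2 and 0.20 in scrambled 4, and 12 of 17 were highest in scrambled 4, against 28.8% of all genes above the receptor level. Pcna read 11.67, 11.72, 11.71 and 12.23, and Rrm2 read 11.11, 10.84, 11.42 and 11.90. Mitotic genes showed another pattern, with 12 of 17 highest in scrambled 1, against 17.7% of all genes above the receptor level, and there Mki67 read 9.10. Chaperones were high in scrambled 4, with a median deviation of 0.23 and 12 of 17 highest there, against the same 28.8%. Hspa5, the BiP chaperone of the endoplasmic reticulum, read 12.75, 12.59, 12.80 and 13.44. Whether these cultures were at different points of differentiation was not tested, and the labels give the same time for all.

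**Figure D4:**
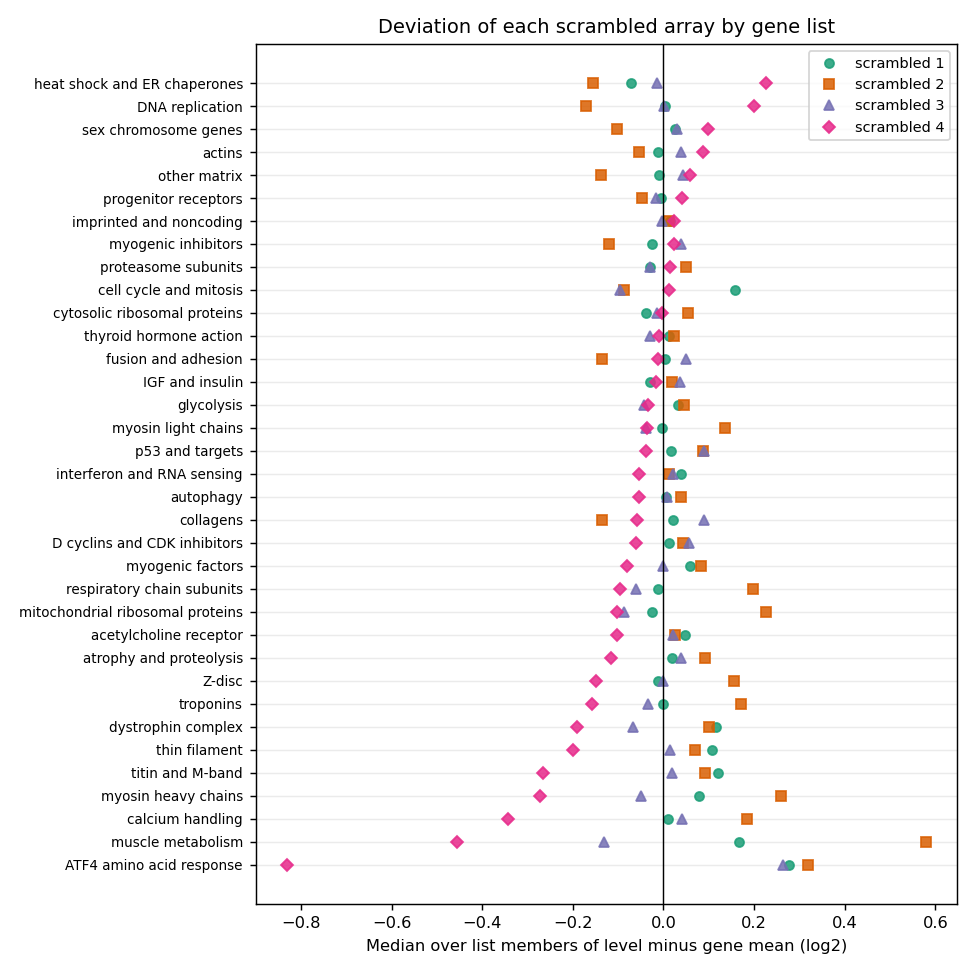
Median over the measured members of each list of the level minus the gene's mean over the 4 arrays (log2 units), 1 symbol per scrambled array. The ATF4 response list, which was added after the values were seen, reads -0.83 in scrambled 4 and 0.26 to 0.32 in the others, and muscle metabolism runs from -0.46 in scrambled 4 to 0.58 in scrambled 2.

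Genes of the amino acid response set scrambled 4 apart most. When amino acids are short or protein folding fails, the translation factor eIF2 is phosphorylated and the transcription factor ATF4 is made, which induces enzymes of serine, glycine and cysteine synthesis, amino acid carriers, tRNA synthetases and stress genes. A list of 36 textbook targets was written after Cth and Trib3 had been seen among the most variable genes, so its values describe the pattern and are no independent evidence of it. Of its 35 measured members, 33 were above the receptor level, against 55.7% of all genes, and the median level was 10.79. The median deviations were 0.28, 0.32, 0.26 and -0.83, and 34 of the 35 were lowest in scrambled 4, against 37.7% of all genes above the receptor level. In 19 of them the gap from the mean of the other 3 cultures was over 1 unit, and the median gap was -1.11.

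The low readings in scrambled 4 were found among enzymes, carriers, factors and synthetases, in genes named after their values were seen. Among enzymes, Pck2 read 10.53, 10.64, 10.31 and 8.51, and Asns, which makes asparagine, 12.70, 12.59, 12.47 and 11.22. The mitochondrial folate enzymes Shmt2, Mthfd2 and Aldh1l2 were 2.51-fold, 2.43-fold and 2.85-fold lower in scrambled 4 than the mean of the other 3, and the serine enzymes Psph, Phgdh and Psat1 were 3.23-fold, 1.79-fold and 1.44-fold lower. The carriers Slc7a5 and Slc3a2, which form the large neutral amino acid transporter, were 2.52-fold and 2.34-fold lower. Slc38a2 was the exception in the list, at 12.30, 12.19, 12.29 and 12.30. Chac1, which degrades glutathione, read 11.76, 11.78, 11.88 and 9.98, and Fgf21, a stress hormone that muscle can secrete, read 12.40, 12.42, 12.11 and 10.70. Factors of the pathway were low too, Atf5 by 2.91-fold, Atf3 by 2.82-fold and Ddit3 (CHOP) by 2.78-fold, and the transcript of Atf4 itself read 12.89, 12.90, 12.88 and 12.15. Synthetases differed less, from 1.75-fold for Wars to 1.47-fold for Aars. For Cth the difference was 10.1-fold and for Trib3 6.96-fold. The fold values come from single arrays of scrambled 4 and have no error of their own, whereas the other 3 cultures lay within 0.399 units of each other in each of the 35 genes.

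**Figure D5:**
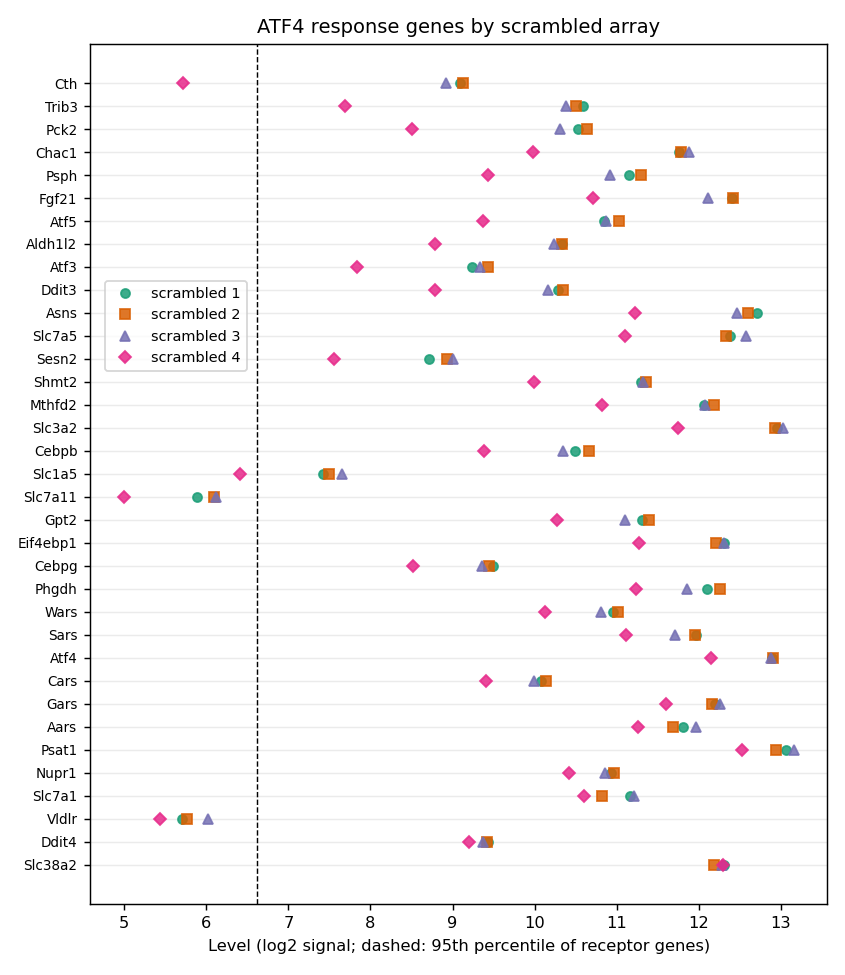
Log2 signal of the 35 measured genes of the amino acid response list in each scrambled array, ordered by the gap between scrambled 4 and the mean of the other 3. Scrambled 4 (pink diamonds) is lowest in 34 genes, from Cth at 5.71 against 8.91 to 9.13, and Slc38a2 at the bottom is the exception. The dashed line is the receptor level.

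Promoters of 3 of these genes are shown for the element through which ATF4 and its C/EBP partners act. The windows are the 250 bases before the RefSeq start in build GRCm38.p6, for Chac1 at chr2:119350992-119351241 (plus strand), Fgf21 at chr7:45615491-45615740 (minus) and Pck2 at chr14:55540016-55540265 (plus). Capitals mark TGATGNAA, here in its reverse complement.
Chac1: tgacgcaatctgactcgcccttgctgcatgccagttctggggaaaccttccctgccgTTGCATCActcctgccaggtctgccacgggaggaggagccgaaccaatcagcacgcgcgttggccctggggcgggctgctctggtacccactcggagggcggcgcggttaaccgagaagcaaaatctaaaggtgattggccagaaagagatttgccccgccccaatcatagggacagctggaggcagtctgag
Fgf21: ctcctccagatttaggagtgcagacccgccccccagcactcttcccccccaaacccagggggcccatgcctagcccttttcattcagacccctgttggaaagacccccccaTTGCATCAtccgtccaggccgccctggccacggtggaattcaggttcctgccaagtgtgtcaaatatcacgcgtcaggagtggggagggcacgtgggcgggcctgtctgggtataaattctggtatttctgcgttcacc
Pck2: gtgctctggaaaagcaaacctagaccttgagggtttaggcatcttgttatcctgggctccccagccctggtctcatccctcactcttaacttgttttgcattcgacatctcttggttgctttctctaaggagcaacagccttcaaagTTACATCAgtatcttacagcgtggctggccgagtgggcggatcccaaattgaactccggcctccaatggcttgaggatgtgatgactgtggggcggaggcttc
The element began at -193 in Chac1, -139 in Fgf21 and -103 in Pck2. Searched on both strands, it occurred in this window in 9 of the 28 listed genes that matched the table (32.1%), against 3.53% of all 27025 promoters, 4.17% of the sarcomere genes and 0 of 40 ribosomal protein genes. The 9 were Asns, Gars, Fgf21, Aars, Chac1, Nupr1, Pck2, Atf3 and Slc7a11. The genes were listed as targets from textbook knowledge, which itself draws on such elements.

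Control probe sets differed between the arrays as follows. The poly-A spike controls, added to the RNA before labelling, deviated by 0.28, 0.14, -0.56 and 0.14, and were low in scrambled 3. Hybridisation controls deviated by -0.12, 0.18, -0.16 and 0.10. The 3′ minus 5′ difference of the Gapdh controls was -0.13, -0.11, -0.14 and -0.15, and that of beta-actin 0.38, 0.40, 0.31 and 0.31, both lowest in scrambled 4 and with a spread between arrays under 0.1. The mean of the Gapdh control probe sets was 14.38, 14.38, 14.38 and 14.33, also lowest in scrambled 4. The part of these values in the differences above was not tested. Scrambled 4 was also the array with the largest deviation over all probe sets. Without scrambled 4, 39 genes above the receptor level had a range over 1, against 187 with it, 3 arrays having a narrower range than 4 by construction. Without scrambled 2 there were 108. The median level of the amino acid list was 11.06 without scrambled 4, and the median deviation of muscle metabolism in scrambled 2 was then 0.43.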

How the data were processed

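The authors deposited 1 log2 expression value for each probe set and array, computed by RMA according to the submitters' processing notes. That method corrects background, gives all arrays 1 distribution and summarises the probes of a set, so a shift of all transcripts at once cannot be seen. Its version is not given in the sources used here. The 4 scrambled arrays of 8 were used here as deposited. No 2 arrays were identical.

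Of 45037 probe sets, with 64 controls set aside, 34945 had 1 symbol in the platform annotation, 932 several and 9160 none. Gene identifiers of 34741 matched RefSeq, 0 symbols were updated, and 18193 genes resulted. Genes with no probe set of 1 symbol, Gapdh and H19 among them, are not analysed here. The brightest probe set by mean represented a gene. Levels, SD, range and ranks over 4 arrays were computed with Python 3.11.15, pandas 2.3.3 and numpy 2.4.6 and drawn with matplotlib 3.10.9. With 1 group there was no test between groups and no p-value was computed. The number of arrays limits the precision.

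Lists numbered 30 for cell programs, 17 for other cell types and 4 for large complexes. Members and lists were chosen with earlier results of these data known, and the amino acid response list was added after the most variable genes were seen. Genes were named by a rule that took the 20 brightest, the 12 most and 12 least variable above the receptor level, Trp53inp2 and list members. Promoter letters were searched in the 250 bases before each RefSeq start, build GRCm38.p6, at 1 promoter a gene. The steps were tested on simulated data. Alternatives left out each array, averaged probe sets, dropped probe sets marked as cross-hybridising or shared, renormalized the arrays, moved the receptor level and took medians.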

Additional observations from a re-analysis of the deposited data

Results flagged for a closer look

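Of the 219 genes named, 31 had 1 culture far from the other 3, with a gap to the nearest that was most of the whole range (Dixon's criterion for 4 samples). Chance alone gives this in about 1 in 20 groups of 4, and over all 10132 genes above the receptor level it was seen in 553 (5.46%), of which scrambled 4 was the odd array in 288, low in 167 and high in 121. Among the 31, scrambled 4 was the low array in 20, many of them from the amino acid list, which was written after values had been seen.

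In that list the values of scrambled 4 were 5.71 for Cth, 7.69 for Trib3, 8.51 for Pck2, 9.98 for Chac1, 11.22 for Asns, 10.00 for Shmt2, 10.82 for Mthfd2 and 8.79 for Aldh1l2. They were 7.84 for Atf3, 12.15 for Atf4, 9.37 for Atf5, 8.79 for Ddit3, 11.59 for Gars, 11.74 for Slc3a2 and 11.09 for Slc7a5. The list's median deviation of -0.83 in scrambled 4 stood apart from 0.26 to 0.32 in the others. Outside it, scrambled 4 was low in Cfap52 (7.29), the CDK inhibitor Cdkn1b (10.00), Gnas (13.56), the release channel Ryr1 (10.51, with 11.09 to 11.18 in the others) and troponin Tnnt2 (13.70), and high in Cdk1 (9.69) and Pcna (12.23). The median deviation of the acetylcholine receptor list was -0.10 in scrambled 4, a small gap among 35 lists examined.

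Scrambled 2 was low in Xist (11.51), Thrb (5.15), Kdm5d (4.02) and Slc38a2 (12.19), and high in Tnni3 (6.52) and Myl3 (7.08). Scrambled 3 was high in Acta1 (14.77) and Myoz3 (6.26), and scrambled 1 was low in Mylpf (14.41). Several of these gaps, in Acta1, Mylpf, Myl3 and Slc38a2, were under 0.2 log2 units.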

How the results depend on the processing

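The share of genes above the receptor level was 55.7%, and ran from 55.2 to 56.3% with 1 array left out. It was 48.1% with all probe sets of a gene averaged, 51.6% without probe sets of suffix _x, _s or _a, 48.2% with the 99th percentile of the receptors as the level and 61.6% with the median of all probe sets. Among genes with 1 probe set, an alternative added after seeing the data with its own receptor level, 3546 genes or 38.6% were above it. Markers of other cell types above the level, 24, became 15, 13, 13 and 37 under those 4 settings in the same order. Genes with a range over 1 numbered 39 to 181 with 1 array left out, where 39 is without scrambled 4 and 108 without scrambled 2, against 187 with all. Sarcomere members above the level numbered 44 to 56 under the alternatives, the 44 where fewer probe sets were read, and each list deviation recomputed (amino acid response and calcium handling in scrambled 4, muscle metabolism in scrambled 2 and 4, mitochondrial ribosomal proteins in scrambled 2) kept its sign. Averaging probe sets moved the level of 93 of 219 named genes and the median of 42 of 53 lists by more than the SD between arrays. Dropping probe sets of suffix _x, _s or _a moved 34 of the 186 named genes that remained and the median of 36 of 53 lists. Quantile normalization of the 4 arrays moved none of the 219 genes or 53 lists. RMA had already given the arrays 1 distribution, so that step left little room to move a level. No paired analysis was possible because only 1 group was described. Levels near the receptor level cannot be told from unexpressed probe sets.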
